A study of Homo sapiens with 6 samples.

Results

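The genes of the SMARC, ARID, BRD, CHD, HDAC, SIRT, INO80 and BAZ families, which encode chromatin remodellers, bromodomain proteins and deacetylases, were followed in an erastin-resistant gastric cancer cell line. Members were every gene of the deposited expression table whose symbol begins with one of those family names followed by the usual number or letter. The search found 62 genes among 11314. Of these, 61 had a mean of at least 0.5 FPKM over the libraries and were tested among 11061 genes. ARID1B, a DNA-binding subunit of the BAF complex, was under that level and was not tested.

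Chromatin remodellers use the energy of ATP to slide, evict or exchange nucleosomes, and most work as subunits of large complexes named SWI/SNF (BAF and PBAF), ISWI, NuRD and INO80. Bromodomain proteins bind acetylated lysines, among them the BET proteins that couple acetylated histones to transcription elongation. Histone deacetylases and the NAD-dependent sirtuins remove acetyl groups, the deacetylases mostly inside corepressor complexes, and several subunits exist as alternative paralogues that take the same place in a complex.

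Poly(A)-selected RNA was sequenced from 6 libraries of SNU-668, an established gastric cancer line, grown as a subline resistant to erastin, a compound that sets off ferroptosis by blocking cystine uptake. All 6 libraries come from that resistant subline transfected with a short hairpin RNA. The titles name 3 libraries SPIN1 and 3 NC (RLS3-SPIN1-1 to -3 and RLS3-NC1 to -3, with RLS3 not explained), and groups are called here by these titles. The genotype entries go against them, calling the libraries titled SPIN1 "WT" and those titled NC "SPIN1 knockdown", and ALKBH3 stands in the series design text where SPIN1 would be.

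SPIN1, the targeted histone reader, was at 0.322, 6.18 and 7.97 FPKM in the titled NC libraries 1 to 3 and at 0.324, 0.629 and 2.49 FPKM in the titled SPIN1 libraries 1 to 3. The groups overlapped, because titled NC library 1 was as low as the lowest titled SPIN1 library (log2 difference -1.17, SE 0.77, limma adjusted p = 0.307). Without titled NC library 1 SPIN1 passed as lower in the libraries titled SPIN1 (log2 difference -2.03, limma adjusted p = 0.0301), as it did with weights per library (-1.87, limma adjusted p = 0.0248), and without titled NC library 3 the difference was -0.65. Over all 6 libraries this transcript did not settle which labels are right. Every direction below is that of the libraries titled SPIN1 relative to those titled NC. The unit, FPKM, counts fragments per kilobase of a gene and relative to all mapped fragments. The depth of the libraries is unknown, and no label states that the libraries of a group are separate cultures. The p-values therefore measure the spread between these libraries, which may be technical. Members made up between 0.163% and 0.184% of a library's summed FPKM. The epithelial keratins KRT8 (29.5 to 66.3 FPKM, group means NC then SPIN1) and KRT18 (71.6 to 117 FPKM) were abundant, whereas EPCAM was at 0.600 and 1.05 FPKM. Of these 3 epithelial markers, 2 passed the threshold as higher, and their median log2 difference was 0.68 over the 3. CD14, a monocyte marker, fell from 24.1 to 11.5 FPKM and DCN, a fibroblast marker, rose from 1.86 to 4.55 FPKM, both past the threshold with limma adjusted p of 0.0116 and 0.00902. CDH5, an endothelial marker, was at 1.54 and 0.844 FPKM, and the other listed markers had no entry in the deposited expression table. The part of these shifts in the results below was not tested.

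Members changed in both directions. With limma on log2(FPKM + 1) and an adjusted p under 0.05 over all genes, 5 of 61 members were higher and 8 were lower in the libraries titled SPIN1, and 48 did not pass. That is 21.3% of members, against 27.6% of all genes tested, where 17.3% were higher and 10.3% lower. The order of the shares turned without titled NC library 2 (18.03% of members, 15.99% of all genes) and with weights per library (50.8% and 48.9%). The median member log2 difference was -0.02, against 0.05 over all genes. Scaling the libraries by quantiles gave 4 higher and 11 lower members, and changed the split over all genes from 1914 higher and 1139 lower to 1596 and 1570. Median scaling gave 1638 and 1428 over all genes. The 6 libraries did not overlap between groups for 11 higher and 14 lower members, 41.0%, against 46.0% of all genes.

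The members that rose were ARID3A, SMARCD2, HDAC1, SMARCA4 and INO80C. ARID5B, CHD2, INO80, SMARCD3, INO80B, BRD2 and HDAC4 were among those that fell. Of the 13, ARID5B alone had a log2 difference of at least 1 in size. When each library was left out in turn, 9 of the 13 stayed past the threshold in all 6 fits, and BRD2, HDAC4, INO80B and INO80C did not. In these bulk RNA samples, fewer cells of a type and less RNA per cell cannot be told apart.

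**Figure D1:**
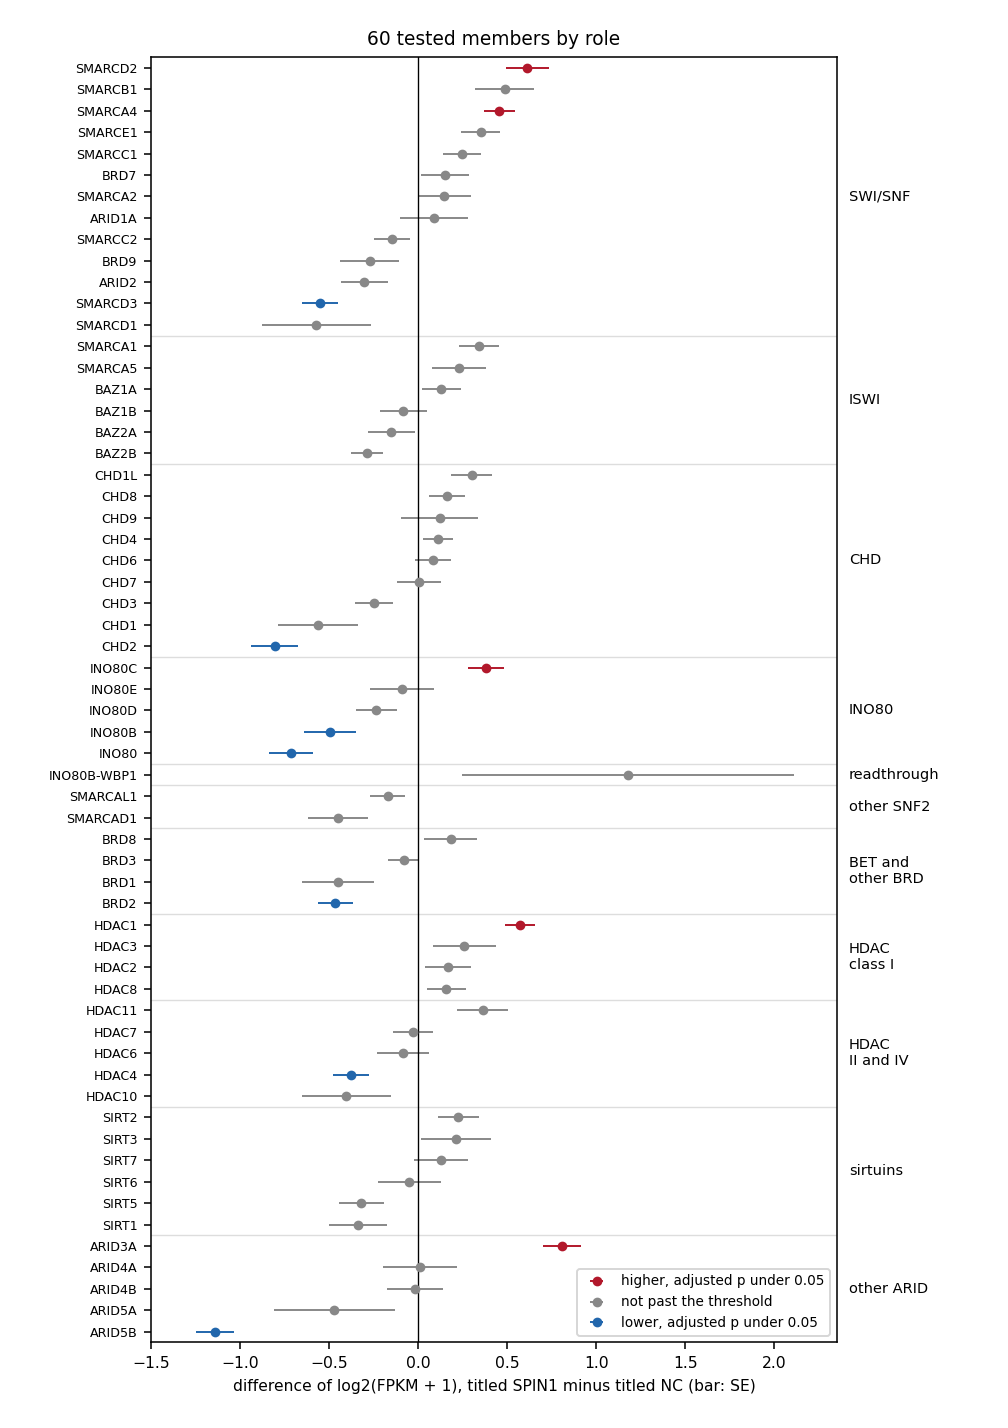
Difference in log2(FPKM + 1) between the libraries titled SPIN1 and titled NC for 60 of the 61 tested members, ordered by size within each role, with bars for the standard error. The 5 members past the threshold on the higher side and 7 on the lower side are coloured, and the 48 others lie on either side of 0.

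Promoter sequence is shown for those members of smallest adjusted p on either side that have a RefSeq promoter entry, HDAC1 and SMARCA4 among those that rose and ARID5B and CHD2 among those that fell, so that members moving in opposite directions can be set beside each other. Each run is the 250 bases before the annotated RefSeq start, 5′ to 3′ on the gene's strand, in build GRCh38.p14. Whether that start is the one used by the measured transcripts was not tested, and a run may lie inside the measured gene. Capitals mark a CCAAT box or its complement ATTGG. HDAC1 is chr1:32291833-32292082, SMARCA4 is chr19:10960780-10961029, ARID5B is chr10:61901449-61901698 and CHD2 is chr15:92900074-92900323, all on the plus strand.
HDAC1: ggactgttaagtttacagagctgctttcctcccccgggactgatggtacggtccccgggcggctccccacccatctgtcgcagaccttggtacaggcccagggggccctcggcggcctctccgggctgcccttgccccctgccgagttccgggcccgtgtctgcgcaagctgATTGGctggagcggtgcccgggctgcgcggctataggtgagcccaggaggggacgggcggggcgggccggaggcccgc
SMARCA4: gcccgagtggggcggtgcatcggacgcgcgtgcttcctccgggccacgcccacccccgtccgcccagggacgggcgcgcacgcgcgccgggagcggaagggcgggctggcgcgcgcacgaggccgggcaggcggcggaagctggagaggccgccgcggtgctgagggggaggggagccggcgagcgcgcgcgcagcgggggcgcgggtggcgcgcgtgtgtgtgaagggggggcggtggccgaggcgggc
ARID5B: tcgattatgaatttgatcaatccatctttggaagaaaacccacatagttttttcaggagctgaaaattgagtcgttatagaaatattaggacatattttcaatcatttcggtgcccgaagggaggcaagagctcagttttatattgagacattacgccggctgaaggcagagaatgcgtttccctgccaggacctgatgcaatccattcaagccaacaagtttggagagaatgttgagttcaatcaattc
CHD2: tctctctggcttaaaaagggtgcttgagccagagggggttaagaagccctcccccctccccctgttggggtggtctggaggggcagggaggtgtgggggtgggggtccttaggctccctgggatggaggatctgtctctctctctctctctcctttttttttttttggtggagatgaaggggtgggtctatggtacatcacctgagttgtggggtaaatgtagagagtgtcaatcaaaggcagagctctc

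The share of G and C was 71.6% for HDAC1, 82.4% for SMARCA4, 54.8% for CHD2 and 40.4% for ARID5B. The ranges overlapped, at 65.6% to 82.4% over the 4 members that rose and have an entry and 40.4% to 74.0% over the 7 that fell. Over the 53 members with an entry the median was 65.6%, as it was over the 8678 tested genes with an entry. Words were searched on both strands, and none of the kinds contains another. The E2F-type words were TTCCCGC and the variants TTGGCGC and, with other central bases, TTCGCGC or else TTGCCGC. The others were TGACGTCA for the cyclic AMP element, CCAAT for the NF-Y box and CACGTG for the E-box. An E2F-type word lay in 6 of the 53 member promoters (11.3%) and in 18.3% of those of tested genes, and in 0 of the 11 called members with an entry. CCAAT lay in 24.5% of member promoters against 35.4% of those of tested genes, CACGTG in 3.77% against 9.32%, and TGACGTCA in 0 of 53 against 3.08%. HDAC1 carried the single match among the called members, an ATTGG that begins 78 bases before the start.

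Most SWI/SNF subunits did not pass. Of 13 tested, 2 rose, 1 fell and 10 did not pass, 23.1% called against 27.6% of all genes, with a median log2 difference of 0.15. SMARCA4 (BRG1; hg19 chr19:11071677-11176071, plus strand), the more abundant of the alternative catalytic ATPases here, was at 11.0, 11.9 and 11.2 FPKM in the titled NC libraries and at 15.4, 15.9 and 16.7 FPKM in the titled SPIN1 libraries. Every titled SPIN1 library lay above every titled NC library, and the mean rose 1.40-fold, from 11.4 ± 0.485 to 15.98 ± 0.629 FPKM (SD, n = 3 each; log2 difference 0.46, SE 0.09, limma adjusted p = 0.0103). Its alternative ATPase SMARCA2 (BRM) was near the filter of 0.5 FPKM, at 0.501, 0.419 and 0.637 FPKM against 0.358, 0.776 and 0.963 FPKM. The SMARCA2 groups overlapped and the gene did not pass (limma adjusted p = 0.502).

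The SMARCD paralogues, alternative subunits that contact transcription factors, diverged. SMARCD2 (hg19 chr17:61909441-61920425, minus strand) was at 21.7, 18.7 and 22.4 FPKM in the titled NC libraries and at 29.0, 36.8 and 31.9 FPKM in the titled SPIN1 libraries. It rose 1.56-fold with no overlap, from 20.9 ± 1.95 to 32.6 ± 3.93 FPKM (SD, n = 3 each; log2 difference 0.61, SE 0.12, limma adjusted p = 0.0121). SMARCD3 (hg19 chr7:150935850-150974982, minus strand), the form known from muscle and heart, was at 13.3, 11.4 and 12.6 FPKM against 8.83, 7.67 and 7.94 FPKM. Its mean fell 1.52-fold with no overlap, from 12.4 ± 0.972 to 8.15 ± 0.607 FPKM (log2 difference -0.55, SE 0.10, limma adjusted p = 0.01001). SMARCD3 overlaps CHPF2 on the opposite strand by 64 bases, and CHPF2 was at 8.06 and 6.56 FPKM.

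SMARCD1 was at 10.9, 12.7 and 13.3 FPKM in the titled NC libraries and at 6.76, 13.6 and 5.25 FPKM in the titled SPIN1 libraries. Titled SPIN1 library 2 lay above all the others while libraries 1 and 3 lay below them, and the gene did not pass (log2 difference -0.57, SE 0.31, limma adjusted p = 0.214). Without titled SPIN1 library 2 it passed as lower (log2 difference -0.93, limma adjusted p = 0.0153). As shares of the summed FPKM of the 3 paralogues, SMARCD2 took 45.8% ± 1.85 in the titled NC libraries and 66.4% ± 3.87 in the titled SPIN1 libraries. The SMARCD3 share was 27.2% ± 1.51 and 16.9% ± 3.35, and that of SMARCD1 was 27.0% ± 3.03 and 16.7% ± 6.03 (SD, n = 3 each). The summed level was 45.6 ± 2.79 and 49.2 ± 7.61 FPKM, a difference within the spread.

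SMARCB1, SMARCE1, SMARCC1 and SMARCC2 did not pass. SMARCB1 (SNF5), a tumour suppressor, was at 20.04, 13.2 and 18.1 FPKM in the titled NC libraries and at 24.9, 21.3 and 26.2 FPKM in the titled SPIN1 libraries, without overlap but with a wide spread (log2 difference 0.49, SE 0.17, limma adjusted p = 0.0714). SMARCE1, the HMG-box subunit, was at 5.51, 5.79 and 6.39 FPKM against 7.17, 7.61 and 8.61 FPKM (limma adjusted p = 0.0539). The scaffold subunit SMARCC1 was at 8.29, 8.003 and 8.98 FPKM against 9.51, 9.74 and 11.3 FPKM, again apart and not past the threshold (limma adjusted p = 0.131). Its paralogue SMARCC2 was at 7.05, 7.21 and 7.83 FPKM against 6.38, 6.13 and 7.18 FPKM, with groups that overlapped (limma adjusted p = 0.330).

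Among the ARID and bromodomain subunits that set the subtype of the complex, ARID1A of BAF was at 5.58, 4.24 and 6.65 FPKM against 4.51, 6.56 and 6.60 FPKM. The ARID1A groups overlapped, and the gene did not pass (limma adjusted p = 0.764). ARID1B was at 0.608, 0.712 and 0.398 FPKM against 0.358, 0.477 and 0.378 FPKM, so that the ratio of ARID1A to ARID1B in FPKM was 10.6 ± 5.52 and 14.6 ± 2.54 (SD, n = 3 each). ARID2 of PBAF had group means of 1.66 and 1.16 FPKM and did not pass (log2 difference -0.30, limma adjusted p = 0.138). BRD7, also of PBAF, was at 8.67, 12.3 and 11.6 FPKM against 11.9, 11.9 and 12.3 FPKM. BRD9, of the non-canonical complex, was at 4.97, 5.15 and 5.08 FPKM against 5.41, 3.63 and 3.26 FPKM, where titled SPIN1 library 1 lay above every titled NC library and the other two lay below. Leaving out titled SPIN1 library 1 put BRD9 past the threshold as lower (log2 difference -0.45, limma adjusted p = 0.0216).

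The ISWI ATPases and their BAZ partners, which space nucleosomes, showed no call. With limma, 0 of 6 passed in either direction, against 27.6% of all genes called. At an unadjusted p under 0.05, 1 was higher and 1 lower, and the median log2 difference was 0.02. The most abundant was BAZ1B (WSTF), at 24.7, 25.7 and 27.1 FPKM in the titled NC libraries and 20.2, 25.6 and 27.7 FPKM in the titled SPIN1 libraries. Next came BAZ1A (ACF1), at 8.56, 9.80 and 9.78 FPKM against 9.37, 10.4 and 11.3 FPKM, and in both genes the groups overlapped. BAZ2B came nearest to a call, at 0.927, 1.10 and 1.19 FPKM against 0.651, 0.758 and 0.683 FPKM (log2 difference -0.29, limma adjusted p = 0.0533), and passed under both other scalings.

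The ISWI ATPases themselves were at low levels. SMARCA1 (SNF2L) was at 0.386, 0.555 and 0.735 FPKM in the titled NC libraries and 0.821, 1.06 and 1.02 FPKM in the titled SPIN1 libraries. Its groups were apart, and it did not pass (log2 difference 0.34, limma adjusted p = 0.0633). SMARCA5 (SNF2H) was at 2.00, 2.46 and 2.55 FPKM against 2.26, 3.04 and 3.52 FPKM, with overlap (limma adjusted p = 0.303). BAZ2A (TIP5), which acts in silencing of ribosomal DNA, was at 4.11, 4.20 and 5.03 FPKM against 3.26, 4.18 and 4.32 FPKM, with overlap as well.

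Of the CHD remodellers, 0 of 9 rose, 1 fell and 8 did not pass (11.1% called, against 27.6% of all genes), and the median log2 difference was 0.08. The gene that fell was CHD2 (hg19 chr15:93443419-93571235, plus strand), a remodeller of active chromatin whose loss causes a childhood epilepsy. It was at 7.14, 9.04 and 9.76 FPKM in the titled NC libraries and at 4.10, 4.80 and 4.56 FPKM in the titled SPIN1 libraries. The groups were well apart, and the mean was 1.93-fold lower, 8.65 ± 1.35 against 4.49 ± 0.355 FPKM (SD, n = 3 each; log2 difference -0.81, SE 0.13, limma adjusted p = 0.00662). Its closest relative CHD1, which binds methylated histone tails of active promoters, was at 5.10, 6.92 and 6.68 FPKM against 2.53, 4.31 and 5.16 FPKM. The highest titled SPIN1 library of CHD1 just passed the lowest titled NC library (log2 difference -0.56, SE 0.23, limma adjusted p = 0.111).

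The NuRD ATPases were the most abundant of the family. CHD3 was at 29.1, 25.2 and 28.6 FPKM in the titled NC libraries and 25.6, 22.6 and 21.3 FPKM in the titled SPIN1 libraries, with overlap (log2 difference -0.25, limma adjusted p = 0.130). CHD4 was at 19.4, 18.5 and 19.1 FPKM against 19.5, 21.1 and 21.3 FPKM, apart by a narrow margin (log2 difference 0.11, limma adjusted p = 0.367). CHD1L (ALC1), which is recruited by poly(ADP-ribose) at DNA breaks, was at 14.04, 15.8 and 16.8 FPKM against 18.0, 18.3 and 21.8 FPKM and did not pass (limma adjusted p = 0.0994). CHD6, CHD7, CHD8 and CHD9 had group means between 1.67 and 5.39 FPKM and overlapping groups.

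The INO80 complex exchanges and spaces nucleosomes at promoters and replication forks. Of 5 subunits tested, 1 rose and 2 fell, with a median log2 difference of -0.23. Over all genes, 27.6% were called, 17.3% higher and 10.3% lower. The ATPase INO80 (hg19 chr15:41271078-41408552, minus strand) was at 5.64, 7.04 and 6.58 FPKM in the titled NC libraries and at 3.29, 3.25 and 4.02 FPKM in the titled SPIN1 libraries. It fell 1.83-fold without overlap, from 6.42 ± 0.715 to 3.52 ± 0.433 FPKM (SD, n = 3 each; log2 difference -0.72, SE 0.12, limma adjusted p = 0.00757). INO80C (IES6; hg19 chr18:33032194-33077955, minus strand) was at 1.88, 1.64 and 1.70 FPKM against 2.32, 2.61 and 2.76 FPKM. It rose without overlap (log2 difference 0.38, SE 0.10, limma adjusted p = 0.0338), and the call was lost in 5 of the 6 fits that leave out a library, with limma adjusted p up to 0.124, in all but that without titled SPIN1 library 1.

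INO80B (IES2; hg19 chr2:74682150-74685087, plus strand) had values of 22.4, 15.7 and 18.0 FPKM in the titled NC libraries and of 12.1, 12.1 and 14.5 FPKM in the titled SPIN1 libraries (log2 difference -0.50, SE 0.15, limma adjusted p = 0.0483). The groups were apart, and the gene no longer passed in 5 of the 6 fits omitting a library, all but that without titled NC library 2, with limma adjusted p up to 0.132. The readthrough transcript INO80B-WBP1 shares 2873 bases of its span with INO80B on the same strand. It was listed at 0 in 5 libraries and at 10.6 FPKM in titled SPIN1 library 1. The sum of both was 22.4, 15.7 and 18.0 FPKM against 22.6, 12.1 and 14.5 FPKM, and the groups then overlapped, so the level of INO80B is uncertain. INO80D (1.18 and 0.865 FPKM) and INO80E (6.80 and 6.34 FPKM) did not pass.

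The 2 other SNF2 ATPases, SMARCAD1, which acts in heterochromatin upkeep and DNA end resection, and SMARCAL1, which remodels stalled forks, did not pass with limma, though 1 was lower at an unadjusted p under 0.05. SMARCAD1 was at 4.05, 4.79 and 4.98 FPKM in the titled NC libraries and 2.22, 3.55 and 3.67 FPKM in the titled SPIN1 libraries. Its groups were apart (log2 difference -0.45, SE 0.17, limma adjusted p = 0.0955). SMARCAL1 was at 5.26, 5.85 and 5.32 FPKM against 5.11, 4.50 and 4.66 FPKM, apart by a narrow margin (limma adjusted p = 0.245).

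The BET and other bromodomain proteins described here either fell or did not pass. BRD2 (hg19 chr6:32936437-32949282, plus strand), a BET protein that binds acetylated chromatin at transcribed genes, was at 17.1, 18.1 and 18.4 FPKM in the titled NC libraries against 11.5, 12.6 and 13.9 FPKM in the titled SPIN1 libraries. It fell 1.41-fold without overlap, from 17.9 ± 0.720 to 12.7 ± 1.21 FPKM (log2 difference -0.47, SE 0.10, limma adjusted p = 0.0157). The BRD2 call was lost without titled NC library 2, titled NC library 3 or titled SPIN1 library 2 (limma adjusted p 0.0668, 0.0620 and 0.0538).

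BRD3, a BET protein closely related to BRD2, was at 6.41, 6.91 and 6.77 FPKM in the titled NC libraries and 6.10, 6.26 and 6.44 FPKM in the titled SPIN1 libraries. Its groups overlapped slightly (log2 difference -0.08, SE 0.09, limma adjusted p = 0.528). BRD1, a scaffold of histone acetyltransferase complexes, varied in the titled NC libraries at 5.48, 3.33 and 6.36 FPKM, against 3.41, 3.45 and 3.11 FPKM (limma adjusted p = 0.144). BRD8, a TIP60 complex subunit, had means of 6.77 and 7.88 FPKM (limma adjusted p = 0.406).

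**Figure D2:**
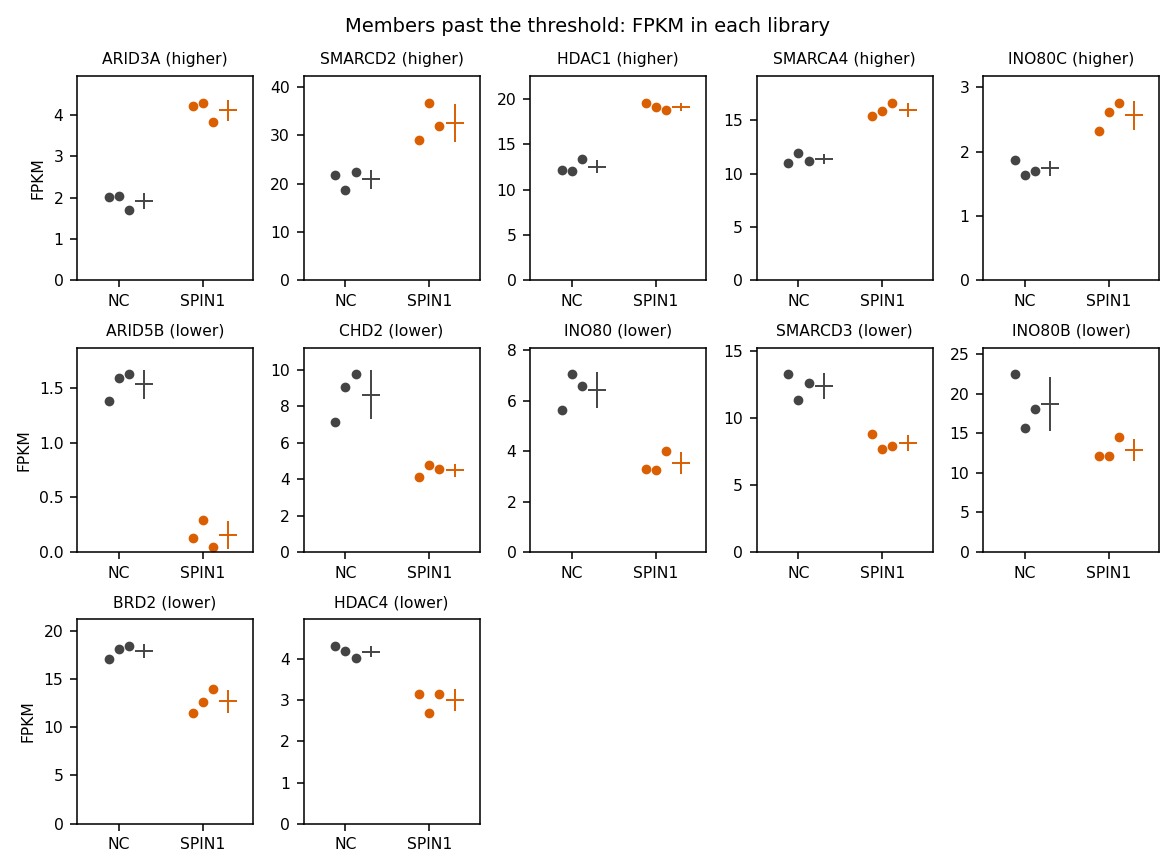
FPKM in each library of 12 members past the threshold, 3 titled NC and 3 titled SPIN1, with the mean and SD beside the points and each axis starting at 0. HDAC1 shows tight groups at 12.6 and 19.2 FPKM, whereas ARID5B is close to 0 in the libraries titled SPIN1.

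Of the class I deacetylases, 1 of 4 rose and 0 fell (25.0% called, against 27.6% of all genes), and the median log2 difference was 0.21. HDAC1 (hg19 chr1:32757687-32799236, plus strand), the catalytic subunit of SIN3, NuRD and CoREST complexes, was at 12.2, 12.1 and 13.4 FPKM in the titled NC libraries and at 19.6, 19.1 and 18.7 FPKM in the titled SPIN1 libraries. The groups were far apart, and HDAC1 rose 1.52-fold, from 12.6 ± 0.690 to 19.2 ± 0.427 FPKM (SD, n = 3 each; log2 difference 0.57, SE 0.09, limma adjusted p = 0.00468). HDAC2, its paralogue in the same complexes, was at 2.79, 3.15 and 3.63 FPKM against 3.35, 3.48 and 4.30 FPKM, with overlap (limma adjusted p = 0.378). HDAC3, the enzyme of the NCoR complex, was at 7.26, 7.96 and 10.6 FPKM against 12.8, 9.46 and 9.17 FPKM (limma adjusted p = 0.320), and HDAC8 had means of 2.18 and 2.54 FPKM (limma adjusted p = 0.335). The summed class I level was 26.5 ± 3.02 and 35.9 ± 1.80 FPKM, and HDAC1 took 47.6% ± 2.88 and 53.5% ± 1.75 of it (SD, n = 3 each).

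Of the class II and IV deacetylases, 0 of 5 rose and 1 fell, with a median log2 difference of -0.09. The share called among all genes was 27.6%, with 17.3% higher and 10.3% lower. HDAC4 (hg19 chr2:239969864-240323348, minus strand), which shuttles between nucleus and cytoplasm and represses MEF2 factors, was at 4.33, 4.20 and 4.04 FPKM in the titled NC libraries and 3.17, 2.69 and 3.15 FPKM in the titled SPIN1 libraries. It fell without overlap (log2 difference -0.38, SE 0.10, limma adjusted p = 0.0344). The gene no longer passed in 5 of the 6 fits omitting a library, all but that without titled SPIN1 library 1, with limma adjusted p up to 0.115. HDAC10, known as a polyamine deacetylase, had means of 6.74 and 4.99 FPKM and overlapping groups, and it passed as lower without titled SPIN1 library 1. HDAC11, the class IV enzyme, had means of 1.93 and 2.76 FPKM (limma adjusted p = 0.110). The tubulin deacetylase HDAC6 (5.40 and 5.07 FPKM) and the MEF2 repressor HDAC7 (5.06 and 4.92 FPKM) overlapped. HDAC5, HDAC9, SIRT4, CHD5, ARID3B and ARID3C had no entry under these symbols in the deposited expression table, so they could not be analysed here.

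Of the sirtuins, 0 of 6 passed with limma in either direction, against 27.6% of all genes called. At an unadjusted p under 0.05, 0 were higher and 1 was lower, and the median log2 difference was 0.04. SIRT7, the nucleolar sirtuin, was at 8.86, 7.25 and 8.02 FPKM in the titled NC libraries and 11.1, 7.86 and 7.91 FPKM in the titled SPIN1 libraries. SIRT2, mainly cytoplasmic, was at 8.29, 6.78 and 6.56 FPKM against 8.91, 8.63 and 8.14 FPKM. In both the groups overlapped. SIRT1, a nuclear deacetylase of p53 and histones, was at 7.01, 9.09 and 9.60 FPKM against 5.37, 6.73 and 7.63 FPKM, with the highest titled SPIN1 library above the lowest titled NC library (log2 difference -0.34, limma adjusted p = 0.170). SIRT6, which acts at telomeres and DNA breaks, was at 5.17, 4.51 and 4.70 FPKM against 6.23, 3.64 and 4.20 FPKM. Of the mitochondrial enzymes, SIRT3 had means of 3.04 and 3.69 FPKM and SIRT5, a desuccinylase, 2.99 and 2.21 FPKM with groups apart (limma adjusted p = 0.112).

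The other ARID proteins held the member with the largest fold of group means on each side among those past the threshold. ARID3A (hg19 chr19:925781-975939, plus strand), a transcription factor first studied in B cells, was at 2.02, 2.05 and 1.69 FPKM in the titled NC libraries and at 4.21, 4.30 and 3.83 FPKM in the titled SPIN1 libraries. It rose 2.14-fold with no overlap, from 1.92 ± 0.199 to 4.11 ± 0.251 FPKM (SD, n = 3 each; log2 difference 0.81, SE 0.10, limma adjusted p = 0.00286). ARID5B (hg19 chr10:63661059-63856703, plus strand), a DNA-binding partner of the demethylase PHF2, was at 1.39, 1.597 and 1.63 FPKM against 0.129, 0.294 and 0.0412 FPKM. The titled SPIN1 libraries were all close to 0, and the mean fell 9.93-fold, from 1.54 ± 0.132 to 0.155 ± 0.128 FPKM (log2 difference -1.14, SE 0.11, limma adjusted p = 0.000997). That log2 difference is held down by the pseudocount of 1 FPKM, and ARID5B passed the filter only through its level in the titled NC libraries.

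ARID5A, an RNA-binding stabiliser of inflammatory transcripts, was at 1.43, 4.75 and 1.73 FPKM in the titled NC libraries and 1.16, 1.23 and 1.97 FPKM in the titled SPIN1 libraries. Titled NC library 2 stood apart from the 5 others, and the groups overlapped (limma adjusted p = 0.347). The SIN3 subunits ARID4A and ARID4B did not pass, and their groups overlapped. ARID4A was at 3.61, 4.50 and 5.57 FPKM against 3.63, 4.06 and 6.25 FPKM, and ARID4B at 2.71, 4.16 and 3.68 FPKM against 2.91, 3.65 and 3.76 FPKM (limma adjusted p 0.978 and 0.946).

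Ratios between related members within a library compare paralogues without regard to the scaling of the libraries, apart from the pseudocount. Of 16 pairs, 7 had groups apart. Among single genes, 46.0% of all tested had groups apart, and no such share was taken over other pairs of genes. Each pair was tested by exact permutation, two-sided, over the 20 divisions of the 6 libraries. The smallest p this design allows is 0.1, and the smallest adjusted p was 0.229, so no pair could pass. The FPKM ratio of SMARCC1 to SMARCC2 was 1.14 ± 0.0326 in the titled NC libraries and 1.55 ± 0.0541 in the titled SPIN1 libraries (SD, n = 3 each). Every titled SPIN1 library lay above every titled NC library.

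The ratio of HDAC1 to HDAC2 in FPKM was 3.97 ± 0.364 in the titled NC libraries and 5.23 ± 0.783 in the titled SPIN1 libraries. It was apart on the log2(FPKM + 1) scale of the test, whereas the plain FPKM ratios overlapped narrowly. The ratio of BAZ1A to BAZ1B was 0.363 ± 0.0174 and 0.426 ± 0.0332. In the other direction, CHD3 to CHD4 was 1.45 ± 0.0744 and 1.13 ± 0.162, and SMARCD1 to SMARCD2 was 0.591 ± 0.0887 and 0.255 ± 0.104. SMARCD2 to SMARCD3, a pair chosen after its values were seen, was 1.64, 1.65 and 1.77 in the titled NC libraries and 3.28, 4.80 and 4.02 in the titled SPIN1 libraries. The pairs SMARCA4 and SMARCA2, ARID1A and ARID1B, SMARCD1 and SMARCD3, CHD1 and CHD2, BRD7 and BRD9, SIRT1 and SIRT6, and ARID4A and ARID4B had ratios that overlapped between the groups on both scales. SMARCA5 to SMARCA1 (4.36 ± 0.859 and 3.02 ± 0.369 in FPKM) and BAZ2A to BAZ2B (4.16 ± 0.310 and 5.62 ± 0.671) overlapped on the scale of the test, whereas their plain FPKM ratios were apart.

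**Figure D3:**
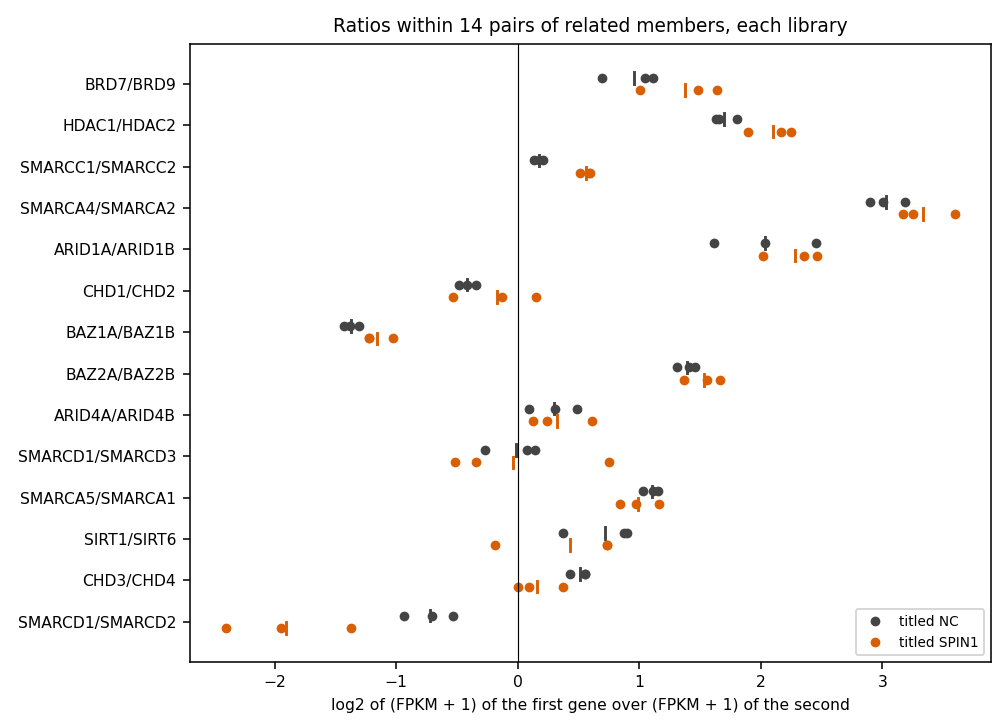
Log2 of the ratio of (FPKM + 1) within 14 pairs of related members, a point for each library and a line for each group mean. The groups are apart for SMARCC1 to SMARCC2, SMARCD1 to SMARCD2 and CHD3 to CHD4, among others.

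Genes that work with the members but lie outside these families were counted in 8 lists. Of 117 partner genes tested, 19 rose and 13 fell (27.4%, against 27.6% of all genes), with a median log2 difference of -0.03. Median scaling gave 18 and 20, and quantile scaling 18 and 21. The counts without a library ran from 13 to 20 higher and from 5 to 12 lower.

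Partners inside SWI/SNF counted 3 higher and 1 lower of 13 (30.8% called, against 27.6% of all genes). DPF1, a histone-reading subunit known from neurons, was at 0.186, 0.181 and 0.139 FPKM in the titled NC libraries and 1.51, 1.92 and 2.02 FPKM in the titled SPIN1 libraries. It rose (log2 difference 1.26, limma adjusted p = 0.000633), and the log2 difference ran from 1.20 to 3.35 over the alternative settings. The 10.8-fold ratio of means is to a level near 0, and DPF1 passed the filter only through the titled SPIN1 libraries. The ubiquitous paralogue DPF2 fell from 13.2 ± 0.0726 to 9.97 ± 0.647 FPKM (limma adjusted p = 0.0235, lost in 5 of the 6 fits without a library, all but that without titled SPIN1 library 1). BCL7C rose from 4.96 ± 0.884 to 9.37 ± 0.0924 FPKM, and ACTB, the actin that also serves in the complex, from 378 ± 8.31 to 613 ± 35.9 FPKM (limma adjusted p 0.00557 and 0.00129).

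The corepressor complexes that hold HDAC1, HDAC2 and HDAC3 were mixed. Of 10 NuRD partners, 0 rose with limma (1 at an unadjusted p under 0.05) and 2 fell. Among all genes 27.6% were called, 17.3% higher and 10.3% lower. The NuRD partners that fell were the scaffold subunits MTA1 (28.8 ± 2.56 to 20.8 ± 0.374 FPKM) and MTA2 (22.7 ± 0.742 to 17.8 ± 0.472 FPKM). Their limma adjusted p was 0.0143 and 0.0237. The MTA1 call was lost without titled SPIN1 library 2 and that of MTA2 in 4 of the 6 fits without a library. Of 21 SIN3, CoREST and NCoR genes, 5 rose and 1 fell (28.6% called, against 27.6% of all genes). KDM1A (LSD1), the demethylase of CoREST, rose from 15.5 ± 0.761 to 25.5 ± 1.44 FPKM, and ING2, the histone reader of SIN3, from 0.663 ± 0.170 to 3.14 ± 0.514 FPKM (limma adjusted p 0.00283 and 0.00116). TBL1X, of the NCoR complex, fell from 72.0 ± 1.97 to 50.1 ± 4.51 FPKM (limma adjusted p = 0.00814). SAP18 and SAP30 were also among those that rose, and the calls of SAP18 and SAP30 were lost in 4 and 5 of the 6 fits without a library.

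Among the 11 other SNF2-family ATPases tested, 6 rose and 0 fell with limma (0 lower at an unadjusted p under 0.05), with a median log2 difference of 0.52. That is 54.5% higher, against 17.3% of all genes, in a list chosen with earlier results of these data known. Without a library 5 or 6 rose and 0 fell, except that 1 fell without titled NC library 2. HELLS, which supports DNA methylation, rose from 0.515 ± 0.277 to 2.77 ± 0.229 FPKM (limma adjusted p = 0.00161). RAD54L, of homologous recombination, rose from 0.621 ± 0.148 to 2.04 ± 0.270 FPKM, and ERCC6L, a mitotic translocase, from 0.191 ± 0.0596 to 1.87 ± 0.729 FPKM (limma adjusted p 0.00272 and 0.00501). HELLS, RAD54L and ERCC6L were low in the titled NC libraries, and ERCC6L passed the filter only through its level in the titled SPIN1 libraries. HLTF, ERCC6 and TTF2 rose as well, and TTF2 no longer passed in 4 of the 6 fits omitting a library.

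Of the 17 other bromodomain proteins, 1 rose and 1 fell (11.8% called, against 27.6% of all genes). ATAD2, a bromodomain ATPase of replicating chromatin, was at 3.80, 5.01 and 5.18 FPKM in the titled NC libraries and 11.7, 15.6 and 18.5 FPKM in the titled SPIN1 libraries, 3.27-fold higher (limma adjusted p = 0.00240). SP110, a nuclear body protein, fell from 10.3 ± 1.00 to 6.44 ± 0.503 FPKM (limma adjusted p = 0.00902). The acetyltransferases, which set the marks that deacetylases remove, counted 1 higher and 4 lower of 16. That is 31.25% called, against 27.6% of all genes, where 17.3% were higher and 10.3% lower. HAT1, which acetylates newly made histones, rose 3.66-fold, from 2.20 ± 0.235 to 8.04 ± 1.62 FPKM (limma adjusted p = 0.00123). KAT7 (HBO1) fell from 5.72 ± 0.0728 to 2.02 ± 0.277 FPKM and KAT8 (MOF) from 12.3 ± 0.354 to 7.89 ± 1.05 FPKM (limma adjusted p 0.000967 and 0.0111). CREBBP (5.42 ± 0.172 to 3.22 ± 0.645 FPKM) and its paralogue EP300 (10.5 ± 0.908 to 6.96 ± 1.12 FPKM) were the other acetyltransferases that fell, with limma adjusted p of 0.0178 and 0.0295. Both calls were lost without titled NC library 2 or titled NC library 3, and that of EP300 also without titled SPIN1 library 2.

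Partners of ISWI counted 1 higher and 0 lower of 4 (25.0% called, against 27.6% of all genes). The gene that rose was POLE3 (26.3 ± 0.886 to 36.1 ± 4.41 FPKM, limma adjusted p = 0.0250, lost in 5 of the 6 fits without a library). Of 26 partners in the INO80, SRCAP and TIP60 complexes, 2 rose and 4 fell (23.1% called, against 27.6% of all genes). The scaffold TRRAP fell from 7.80 ± 0.321 to 5.57 ± 0.124 FPKM, and the TIP60 genes EPC2 (3.95 ± 0.427 to 2.30 ± 0.427 FPKM) and ING3 (3.53 ± 0.537 to 2.01 ± 0.339 FPKM) fell too (limma adjusted p 0.0152, 0.0210 and 0.0224). Each of the 3 calls was lost without titled NC library 2 or titled NC library 3, and those of TRRAP and ING3 also without titled SPIN1 library 2. SRCAP fell and the INO80 subunits ACTR5 and UCHL5 rose with limma adjusted p of 0.0414, 0.0401 and 0.0453, calls that were lost in 5 or 6 of those fits.

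**Figure D4:**
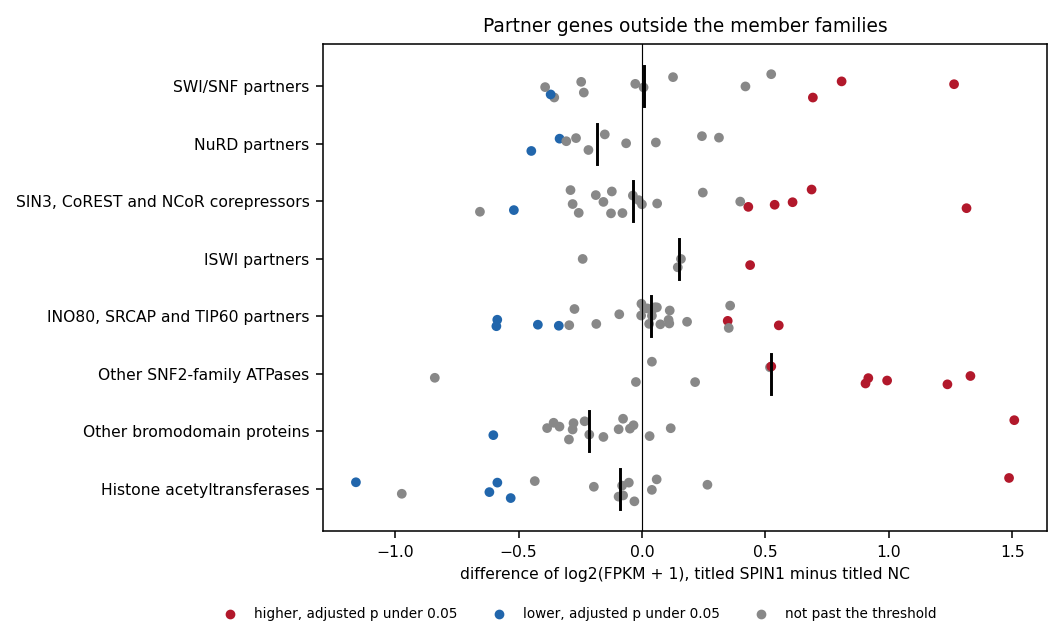
Difference in log2(FPKM + 1), titled SPIN1 minus titled NC, for the 117 tested partner genes in 8 lists, a point for each gene, with a black line at the median of each list. Of the 11 other SNF2-family ATPases, 6 are past the threshold on the higher side (17.3% of all genes), with a list median of 0.52. Of the 16 acetyltransferases, 4 are past it on the lower side (10.3% of all genes) and 1 on the higher.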

How the data were processed

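Messenger RNA of 6 SNU-668 libraries was measured. Per the labels' protocols, RNA was selected with oligo-dT and made into strand-specific libraries by the dUTP method. The submitters' processing notes name HISAT2, StringTie, cutadapt, FastQC and hg19, without versions or settings, and whether counting used strand is not stated there. The authors deposited FPKM per gene, per the file headers, and a gene's FPKM falls when a few abundant genes rise. Read numbers were not used here, so that depth is unknown and counting intervals are left out.

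Titles gave the groups and the replicate numbers. Members and lists were chosen with earlier results of these data known. Every deposited gene had a mean of at least 0.500 FPKM in its higher group, so a gene near 0 in 1 group was present through the other. Genes averaging at least 0.5 FPKM were tested on log2(FPKM + 1) with limma 3.58.1 in R 4.3.3 (trend and robust moderation, statmod 1.5.0), Benjamini-Hochberg adjusted over all 11061 genes at a threshold of 0.05. A fold is a ratio of mean FPKM, and log2 differences use log2(FPKM + 1), which understates changes of low genes. Values in every library are given for members past the threshold (up to 10 in each direction), the members of paralogue pairs and, in role groups with none past it, the 2 with the highest mean. Up to 3 genes of a partner list were named, and further ones after their values were seen. Library values of other members near the threshold were also chosen after they were seen. Pairs were tested with an exact permutation test. Code was tested on simulated data. Plots used matplotlib 3.10.9 (Python 3.11.15). Promoters came from RefSeq (GRCh38.p14), matching 53 of 62 members, while gene coordinates are those of the deposited table. Alternatives were other pseudocounts, filters, scalings, moderation, library weights, a minimum difference, a replicate block and leaving out libraries. Some genes that this naming rule covers are not reported here.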

Additional observations from a re-analysis of the deposited data

How the results depend on the processing

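Pseudocounts of 0.1 and 0.01 FPKM and no filter kept the same 13 called members, and a mean of at least 2 FPKM kept 12, with ARID5B not tested. Median scaling gave 5 higher and 9 lower, and quantile scaling 4 and 11. With weights per library 14 members were higher and 17 lower (3106 and 2304 of all genes), and the weights ran from 0.314 to 3.57. Requiring a log2 difference of at least 1 left 0 higher and 1 lower (430 and 216 of all genes), fewer by construction. Leaving out each library in turn gave 4 to 6 members higher and 5 to 10 lower, the 5 without titled NC library 3, and 1128 to 2045 of all genes higher and 641 to 1251 lower. The lowest counts over all genes were without titled NC library 2, and without titled NC library 3 (1270 and 679) or titled SPIN1 library 2 (1265 and 736) they were also below the main counts by over 1.5 times. Apart from the fewer libraries, the cause was not tested.

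The replicate block gave 8 members higher and 10 lower. INO80B and INO80C lost their calls under it, and CHD1, CHD1L, SIRT1, SMARCA1, SMARCAD1, SMARCB1 and SMARCE1 gained one. Same-numbered libraries correlated in their deviations from the group means at 0.216, 0.0551 and 0.148, and differently numbered ones at -0.211 to 0.0757. Titled NC libraries 1 and 3 correlated best with the same number, and titled NC library 2 with titled SPIN1 library 3 (0.0757). The numbers were not taken to pair the libraries, and these values do not settle whether they do. Without both libraries numbered 1, HDAC4 and INO80B were lost and BRD9 and HDAC10 gained.

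Signs turned for members and pairs with small differences that did not pass. BAZ1B (-0.08) was 0.015 without both libraries numbered 1. ARID4A (0.01) was -0.052 with median scaling, -0.065 with quantile scaling and -0.11 with weights. With each library left out in turn, log2 differences ran from -0.18 to 0.046 for BAZ1B, -0.18 to 0.14 for ARID4A, -0.15 to 0.085 for ARID4B, -0.24 to 0.084 for SIRT6, -0.058 to 0.24 for ARID1A and -0.021 to 0.20 for SIRT7. Differences in log2 ratio ran from -0.41 to 0.22 for SMARCD1 over SMARCD3, -0.46 to 0.019 for SIRT1 over SIRT6 and -0.12 to 0.13 for ARID4A over ARID4B. The cause was not tested.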

Other observations

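Titled NC library 1 had the lowest value of its group for 35 of 61 tested members and titled SPIN1 library 1 for 35 of 61, against 45.5% and 44.2% of all tested genes. Titled NC library 3 had the highest value of its group for 31 members and titled SPIN1 library 3 for 32, against 42.5% and 45.8% of all tested genes. The median SD within a group on the log2(FPKM + 1) scale was 0.151 over the members and 0.161 over all tested genes.

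Several members share ends with a gene on the opposite strand that had a different level, and the part of such overlaps in the values was not tested. BRD9 overlaps TRIP13 by 182 bases, and TRIP13 had means of 6.77 (titled NC) and 21.3 FPKM (titled SPIN1). BRD8 overlaps KIF20A by 268 bases, at 4.51 and 12.4 FPKM, SMARCC2 overlaps MYL6 by 514 bases, at 26.9 and 40.3 FPKM, and BRD2 overlaps HLA-DMA by 435 bases, at 2.40 and 1.34 FPKM. Other members overlap a gene on the same strand. HDAC10 overlaps MAPK12 by 5956 bases, at 5.36 and 4.98 FPKM, and SIRT7 overlaps MAFG by 3054 bases, at 29.4 and 23.1 FPKM. ARID4B overlaps RBM34 by 29824 bases, at 16.5 and 14.5 FPKM. The part of these same-strand overlaps in the values was not tested either.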
